A study of Homo sapiens with 24 samples.

Results

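The 4 lines of this series, ES2, MV3, A549 and PANC1, were compared by how their mRNAs changed when IGF2BP1 was depleted, and the question was which genes and pathways responded differently in ES2 and MV3 than in A549 and PANC1. For each gene the log2 change, siI1 over siC, was taken within each line, and the contrast was defined as the mean of the ES2 and MV3 changes minus the mean of the A549 and PANC1 changes. A contrast above 0 therefore means a higher response in ES2 and MV3, whatever the sign of each change. The genes compared were the 10825 of 58174 annotated genes that had a mean of at least 1 FPKM (a read count scaled by gene length and library size) in the table of every line, and 8903 of them were protein-coding. The mean was taken over the siC and siI1 libraries together, so a change after knockdown could itself carry a gene over the limit. Such genes included SMAD6 (0.48 FPKM in siC and 1.83 in siI1 of ES2), S100A4 (0.76 and 1.73) and S100A3 (0.77 and 1.74) in the same line. RGS2 in PANC1 was another (0.49 and 1.87). Their places among the largest contrasts below are to be read with this in mind. ZNF772 (lowest table mean 1.0011 FPKM) and TXNDC5 (1.0015) lay just inside the limit, and MOSPD3 (0.99987) and HOMEZ (0.99974) just outside.

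All 4 are established cancer cell lines: ES2 from an ovarian carcinoma, MV3 from a melanoma, A549 from a lung adenocarcinoma and PANC1 from a pancreatic carcinoma. In each line 3 libraries were made from cells transfected with a control siRNA directed at no human gene (siC) and 3 from cells that received an IGF2BP1-directed siRNA pool (siI1), 24 libraries of rRNA-depleted total RNA in all. Cells were harvested 72 h after transfection in A549, ES2 and MV3 and 96 h after transfection in PANC1. Each line is a single line of its kind, the 2 lines of a pair differ in tissue, and the siRNAs lower IGF2BP1 without removing it. No label or treatment defines the pairs, which were set for this comparison.

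IGF2BP1 is an oncofetal RNA-binding protein, found in embryonic tissue and in tumours, that binds mRNAs in the cytoplasm and protects many of them from decay, in part by keeping microRNAs off. It promotes proliferation and an invasive, mesenchymal cell behaviour. Which mRNAs depend on it in a given cell also depends on which signalling pathways, microRNAs and transcription factors that cell holds.

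IGF2BP1 itself fell in every line, and the mean fall differed little between the pairs. IGF2BP1 was at 13.1, 14 and 12.1 FPKM (siC) and 4.22, 4.19 and 4.03 FPKM (siI1) in ES2, and at 9.09, 9.64 and 9.06 (siC) and 3.02, 2.95 and 2.77 (siI1) in MV3. IGF2BP1 in A549 was at 39.8, 39.8 and 39.6 FPKM (siC) and 15.3, 16.4 and 15.2 FPKM (siI1), and at 11.2, 11.3 and 11 (siC) and 2.75, 2.87 and 2.71 (siI1) in PANC1. Its log2 changes were -1.55 in ES2, -1.52 in MV3, -1.32 in A549 and -1.83 in PANC1, and the contrast was 0.04 ± 0.05 (SE, limma adjusted p = 0.533), with a difference within the A549 and PANC1 pair of -0.51 (limma adjusted p = 2.28e-05). The contrasts of its paralogs IGF2BP2 (-0.04 ± 0.07, limma adjusted p = 0.717) and IGF2BP3 (0.06 ± 0.07, adjusted p = 0.526) did not pass the threshold of 0.05 either.

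The lines differed in depth, from 3105215 to 4553326 reads assigned to genes per library in A549 to between 15572492 and 20082702 in MV3, and in the residual SD of log2 FPKM, from 0.193 in MV3 to 0.385 in A549. The pairs also differed in cell type markers. In the control libraries the epithelial keratin KRT19 was at 111 to 124 FPKM in A549 and 547 to 680 in PANC1, and at no more than 0.0546 in ES2 and MV3, and E-cadherin (CDH1) was at 18.0 to 18.9, 4.03 to 4.83 and no more than 0.0108. EPCAM, KRT8 and KRT18 were also highest in A549 and PANC1, but KRT18 was still at 41.9 to 47.4 in ES2 and 18.5 to 20.2 in MV3. The keratin KRT7 cut across the pairs, at 100 to 110 in ES2, 385 to 418 in A549, 0.763 to 1.14 in MV3 and 2.34 to 3.59 in PANC1. Of the pancreatic markers, PDX1 was at 1.46 to 1.83 in PANC1, and PRSS1 did not exceed 0.078 in any library. SOX9, of the same set, was at 16.9 to 20.3 in PANC1 and higher in ES2, at 21.7 to 23.3. It was at 12 to 12.5 in MV3 and 7.22 to 8.79 in A549. SOX10 and TYR were at 0 in every library and MLANA at no more than 0.101, and MITF was lowest in MV3, so these melanocytic markers were low or absent there. In the control libraries of A549 the lung markers SFTPB and NKX2-1 were at 0 and NAPSA at 0.211 to 0.411, and in those of ES2 the ovarian markers MUC16, PAX8 and WT1 did not exceed 0.262. PAX8 was at 1.05 to 1.28 in MV3 and WT1 at 1.62 to 2.31 in PANC1, above their levels in ES2. PTPRC, the common leukocyte marker, did not exceed 0.0332. Of the endothelial markers, CDH5 was at 8.32 to 10.9 in ES2 and at no more than 0.0598 in the other lines. PECAM1 did not exceed 0.393 and VWF 0.038 in any library. Harvest time, depth, tissue and epithelial state differ between the lines, and their parts in a contrast cannot be told apart.

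Of the 10825 genes, 1732 had a higher (16.0%) and 1927 a lower contrast (17.8%) at a Benjamini-Hochberg adjusted p under 0.05 in limma, and the median contrast of all genes was 0.00. The p-values rest on the spread of libraries within each line and treatment. They do not measure the spread between lines, of which each pair has only 2. A contrast of 2 means can be carried by 1 line. A gene was therefore called consistent when, beside the called contrast, each of the 4 differences between a line of one pair and a line of the other had the same sign with an unadjusted p under 0.05. This held for 323 higher (2.98%) and 443 lower genes (4.09%). The responses also differed within the pairs: 1255 genes (11.6%) between MV3 and ES2, and 3284 (30.3%) between PANC1 and A549. Each of these differences rests on fewer libraries than the contrast, so the counts are not on the same footing.

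By scaling, the balance of the 2 directions moved. With the FPKM as deposited, 47.3% of the called genes were higher. With every library set to the same sum of FPKM, 98.2% were (5955 higher and 112 lower), because the median log2 change of PANC1 then moved to -0.73 and the median contrast to 0.38. The RNA component of the signal recognition particle, RN7SL2, made up 50.1% to 56.2% of the FPKM sum in the PANC1 siC and 62.0% to 64.6% in the siI1 libraries, and 30.5% to 48.5% in the other lines. With the protein-coding sum set equal, a setting added after the data had been seen, the counts were 3186 higher and 959 lower with a median contrast of 0.14. Contrasts below are on the deposited scale and are to be read against the median of all genes. Counts of a list are to be read against the shares over all genes: 16.0% higher, 17.8% lower, 2.98% consistent higher and 4.09% consistent lower. With equal FPKM sums the contrasts of 14 of 119 named genes changed sign, and each small contrast named below for which this held is given with its value there or in the closing section.

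The 443 and 323 consistent genes fell into classes by the test in each single line. Of the lower genes, 128 changed in ES2 and MV3 and in neither A549 nor PANC1, 77 changed in A549 and PANC1 and in neither ES2 nor MV3, and 110 had opposite directions in the pairs with 1 or 2 lines short of the threshold. Of the higher genes, these classes held 72, 31 and 70, and a further 75 changed in the same direction in both pairs but by a different amount, against 28 of the lower genes. Another 6 higher and 6 lower genes were called in all 4 lines with opposite directions in the pairs (0.0554% of the genes each way). Most of these calls were lost in some other fits: with the replicate number as a block 1 and 1 were left, and without any 1 of the 6 A549 libraries 3 to 5 higher and 1 to 3 lower ones. Without replicate 2 of the PANC1 siI1 libraries there were 3 and 3, without its replicate 3 there were 3 higher ones, and without replicate 1 of the PANC1 siC libraries 3 lower ones. The plot of one pair's mean change against the other's shows the consistent genes on both sides of the diagonal, many of them near an axis.

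**Figure D1:**
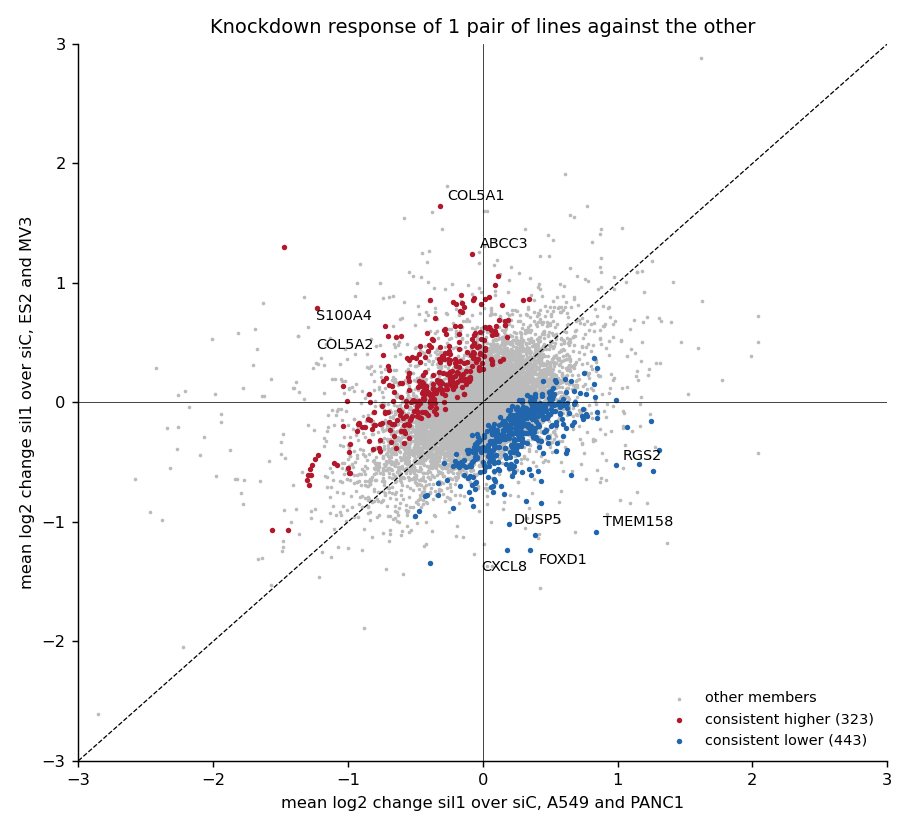
Mean log2 change (siI1 over siC) of each of the 10825 genes in ES2 and MV3 (vertical axis) against that in A549 and PANC1 (horizontal axis); each point is 1 gene, and the dashed line marks equal responses. The 323 consistent higher genes lie above the diagonal and the 443 consistent lower genes below it, with TMEM158 and COL5A1 among the farthest from it.

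The lowest contrast of a consistent protein-coding gene was that of TMEM158 (chr3:45224466-45226287, - strand; positions here and below are hg38, GENCODE v44), a membrane protein gene known to be induced by RAS signalling. TMEM158 was at 108, 114 and 114 FPKM (siC) and 50.1, 44.9 and 48.1 FPKM (siI1) in ES2, and at 188, 182 and 164 (siC) and 88.3, 95.8 and 93 (siI1) in MV3. TMEM158 in A549 was at 6.22, 6.38 and 5.03 FPKM (siC) and 11.7, 9.1 and 11.2 FPKM (siI1), and at 2.3, 2.72 and 1.84 (siC) and 3.71, 5.78 and 4.34 (siI1) in PANC1. In every line the siC and siI1 libraries were apart: the level fell in ES2 and MV3, where it was high, and rose in A549 and PANC1, where it was low. Its log2 changes were -1.22 in ES2, -0.94 in MV3, 0.81 in A549 and 0.87 in PANC1, and the contrast was -1.92 ± 0.13 (SE, limma adjusted p = 4.72e-09).

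DUSP5 (chr10:110497907-110511533, + strand) was also among the 10 lowest and encodes a nuclear phosphatase that inactivates ERK and is itself induced by ERK. DUSP5 was at 50.8, 54.7 and 49.9 FPKM (siC) and 19.6, 17.4 and 16 FPKM (siI1) in ES2, and at 11.7, 10.9 and 9.61 (siC) and 6.23, 5.96 and 7.28 (siI1) in MV3. DUSP5 in A549 was at 9.38, 8.46 and 11.5 FPKM (siC) and 10.2, 12.2 and 12.8 FPKM (siI1), and at 18.2, 19.2 and 16.2 (siC) and 25.2, 26.5 and 25.5 (siI1) in PANC1. The groups overlapped in A549 only, with a fall in ES2 and MV3 and a rise in PANC1, and the contrast was -1.49 ± 0.11 (limma adjusted p = 1.22e-08). RGS2, which dampens G-protein signalling, had a contrast of -1.51 ± 0.14 (adjusted p = 3.21e-07), with log2 changes of -0.31 in ES2, -0.74 in MV3, 0.71 in A549 and 1.26 in PANC1, and rested on as few as 6 reads in a library. Its groups overlapped in ES2, where the change did not pass (limma adjusted p = 0.289). SPHK1, which makes sphingosine-1-phosphate, had a contrast of -1.27 ± 0.11 and log2 changes of -0.67 in ES2, -0.55 in MV3, 0.44 in A549 and 0.87 in PANC1. The change in A549 did not pass (limma adjusted p = 0.212). HBEGF, a ligand of the EGF receptor, fell in ES2 and MV3 (log2 changes -1.44 and -0.59) and was at 0.22 in A549 and 0.16 in PANC1, where siC and siI1 libraries overlapped, for a contrast of -1.21 ± 0.17 (adjusted p = 2.34e-05).

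The chemokine gene CXCL8 (chr4:73740519-73743716, + strand), which encodes interleukin 8, showed the same shape. CXCL8 was at 60.5, 49.8 and 57.1 FPKM (siC) and 14.7, 15.6 and 16 FPKM (siI1) in ES2, and at 16.6, 16.8 and 17.6 (siC) and 11.4, 11.5 and 9.29 (siI1) in MV3. CXCL8 in A549 was at 116, 106 and 86.3 FPKM (siC) and 123, 121 and 126 FPKM (siI1), and at 2.57, 1.96 and 0.995 (siC) and 2.77, 1.68 and 1.39 (siI1) in PANC1. It fell in ES2 and MV3, it was apart between the groups in A549 without passing the threshold of that line (limma adjusted p = 0.12), and in PANC1 the groups overlapped at a low level. The contrast was -1.41 ± 0.20 (limma adjusted p = 3.34e-05). Among the other 10 lowest, FOXD1, a forkhead transcription factor, had a contrast of -1.58 ± 0.08 with log2 changes of -1.84 in ES2, -0.63 in MV3, 0.50 in A549 and 0.20 in PANC1. The change of FOXD1 in PANC1 did not pass (limma adjusted p = 0.103). MT2A, a metallothionein that binds zinc and copper, had one of -1.27 ± 0.19, where of the A549 and PANC1 pair A549 rose (log2 change 0.90, against -0.03 in PANC1). NUDT8 had one of -1.05 ± 0.20, and its groups overlapped in MV3.

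**Figure D2:**
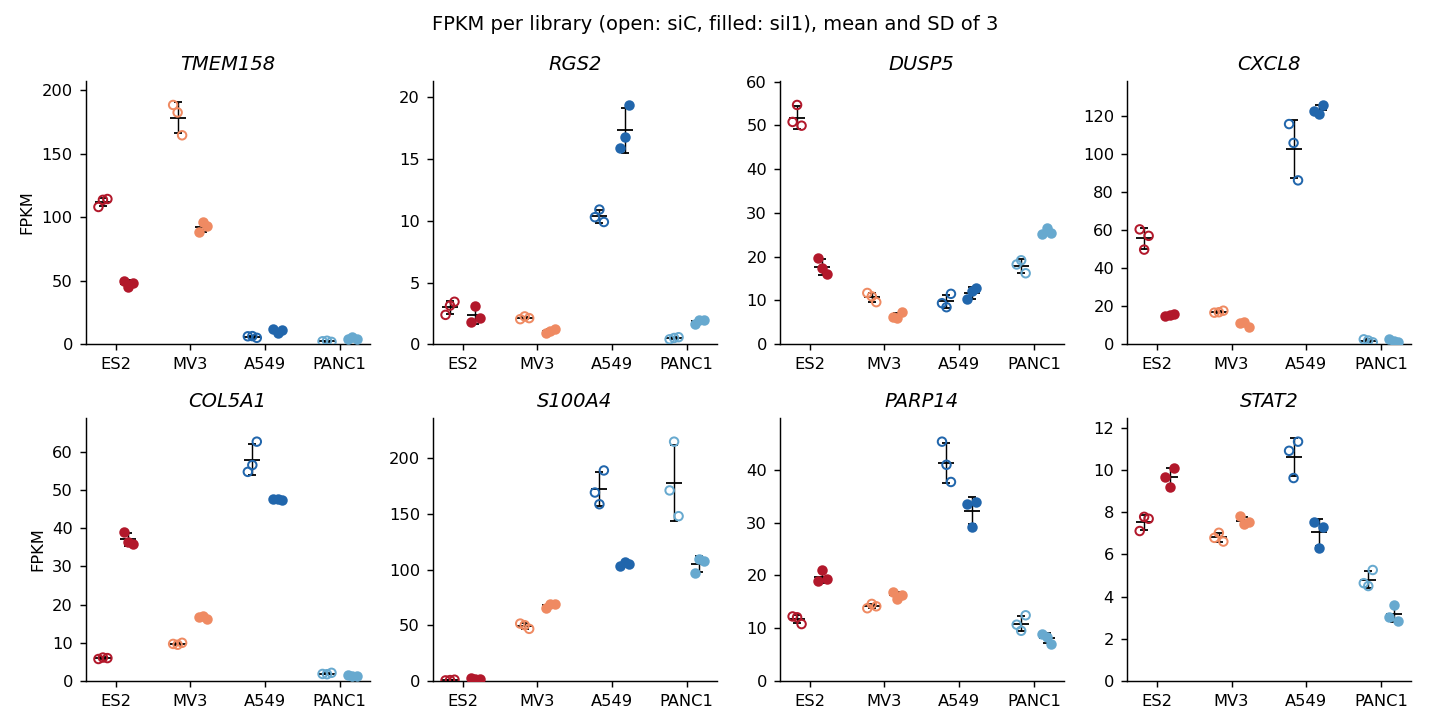
FPKM per library of 8 genes in the 4 lines (horizontal axis), with open circles for siC and filled circles for siI1, and the mean with SD of 3 libraries as bars; each panel has its own FPKM axis from 0. TMEM158, DUSP5 and CXCL8 fall in ES2 and MV3, and PARP14 and STAT2 rise there while they fall in A549 and PANC1. S100A4 rises in MV3 and falls in A549 and PANC1. Its ES2 means (0.76 FPKM in siC and 1.73 in siI1) lie near the bottom of its axis, and that change did not pass.

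Over the list of ERK output and feedback genes (phosphatases, Sprouty proteins and ETS and AP-1 factors that ERK induces), 17 of 23 genes were expressed above the limit. Of these 11 had a lower contrast and 0 a higher one by limma, 3 were consistent, and the median contrast was -0.40, beside 17.8% lower and a median of 0.00 over all genes. The list's median log2 changes were -0.37 in ES2, -0.20 in MV3, 0.26 in A549 and -0.05 in PANC1. Of the 17, 11 fell in ES2 and 11 in MV3, against 1 in A549 and 5 in PANC1, while 7 rose in A549. Thus PANC1 lay between, and without A549 the median contrast was -0.20. The 3 consistent genes were DUSP5, PHLDA1 (contrast -0.40 ± 0.05, log2 changes -0.36 in ES2, -0.24 in MV3, 0.22 in A549 and -0.03 in PANC1), which had a same-sum contrast of 0.02, and MYC, a proto-oncogene and an mRNA that IGF2BP1 is known to stabilise. MYC had log2 changes of -0.04 in ES2, -0.48 in MV3, 0.26 in A549 and 0.37 in PANC1 and a contrast of -0.57 ± 0.05 (limma adjusted p = 2.01e-07). Of the kinases themselves, MAP2K1, which encodes MEK1, had a lower contrast (-0.55 ± 0.06), and BRAF (0.40 ± 0.08) and NF1 (0.38 ± 0.07), which encodes a RAS inhibitor, had higher ones. The other 24 of the 27 tested RAS and MAP kinase genes were not consistent, and the median of that list was 0.03.

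Genes of the immediate early and inflammatory responses moved the same way in part. In the AP-1 and immediate early list 9 of 16 tested genes had a lower contrast (56.25%, beside 17.8% over all genes) and 0 a higher one (median -0.29), and 1 was consistent: JUN, a subunit of AP-1. JUN rose in A549 and PANC1 and its siC and siI1 libraries overlapped in ES2 and MV3 (log2 changes 0.11 in ES2, -0.02 in MV3, 0.65 in A549 and 1.02 in PANC1, contrast -0.79 ± 0.08). In the NF-kB and cytokine list 9 of 16 were lower (56.25%, beside 17.8%) and 1 higher (median -0.25), with CXCL8 and the NF-kB inhibitor gene NFKBIB (-0.49 ± 0.10) consistent.

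The ATF4 list holds genes of amino acid synthesis and transport that the factor ATF4 induces when amino acids are short or the endoplasmic reticulum is stressed. Of 21 tested genes 12 had a lower contrast (57.1%, beside 17.8% over all genes) and 0 a higher one. Of them 4 were consistent (19.05%, beside 4.09%), and the median contrast was -0.25. The list's median log2 changes were below 0 in every line (-0.40 in ES2, -0.46 in MV3, -0.27 in A549 and -0.13 in PANC1), and 12 genes fell in ES2, 15 in MV3, 7 in A549 and 6 in PANC1, while 5 rose in A549 and 5 in PANC1. In A549 and PANC1 the mean level of the list overlapped between siC and siI1 libraries, and in ES2 and MV3 it was apart. ASNS (chr7:97851677-97872542, - strand) encodes asparagine synthetase. ASNS was at 13.5, 12 and 12.1 FPKM (siC) and 7.38, 6.88 and 6.46 FPKM (siI1) in ES2, and at 6.67, 6 and 6.61 (siC) and 4.84, 4.65 and 4.81 (siI1) in MV3. ASNS in A549 was at 4.02, 4.4 and 3.53 FPKM (siC) and 4.53, 5.28 and 3.93 FPKM (siI1), and at 9.04, 11.1 and 8.87 (siC) and 15.9, 12.8 and 14.4 (siI1) in PANC1. The groups were apart in ES2, MV3 and PANC1 and overlapped in A549, and the contrast was -0.97 ± 0.10 (limma adjusted p = 1.32e-06). PSAT1, an enzyme of serine synthesis, fell in ES2 and MV3 (-0.45 and -0.78) and was higher in A549 and PANC1 (0.17 and 0.27), with a contrast of -0.84 ± 0.06. CEBPB, a partner of ATF4, had a contrast of -0.77 ± 0.08 and the glutamine transporter gene SLC1A5 one of -0.42 ± 0.06. ASNS is shown because its RefSeq promoter window (250 bases before to 50 after the start) holds the letters TGATGNAA of the ATF4 element, in capitals here:
ASNS chr7:97872458-97872487 minus strand: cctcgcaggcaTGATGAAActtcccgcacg
These letters, searched on both strands, were in 4 of the 17 list genes with a window (23.5%), in 3.67% of 27305 promoters and in 1.46% of the 7149 promoters of the genes compared (RefSeq, GRCh38.p14). A match of letters is a description and not a binding site.

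Cytosolic ribosomal protein mRNAs gave the most uniform list. All 79 genes were expressed above the limit and all 79 contrasts were below 0, from -0.69 to -0.03, with a median of -0.41. Of them 74 had a lower contrast (93.7%, beside 17.8% over all genes) and 35 were consistent (44.3%, beside 4.09%). The list's median log2 changes were 0.00 in ES2, -0.08 in MV3, 0.30 in A549 and 0.49 in PANC1: 52 genes rose in A549 and 61 in PANC1, while in ES2 14 rose and 4 fell and in MV3 0 rose and 16 fell by the same test. Both subunits took part, with 43 of 47 large and 31 of 32 small subunit genes lower and medians of -0.41 and -0.42.

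RPL27 (chr17:42998273-43002959, + strand), of the large subunit, is an example. RPL27 was at 374, 382 and 382 FPKM (siC) and 395, 386 and 420.1 FPKM (siI1) in ES2, and at 226, 214 and 204 (siC) and 195, 202 and 206 (siI1) in MV3. RPL27 in A549 was at 282, 249.5 and 261 FPKM (siC) and 341, 375 and 389 FPKM (siI1), and at 162, 168 and 139.8 (siC) and 278, 263 and 263 (siI1) in PANC1. Its siC and siI1 libraries were apart in ES2, A549 and PANC1 and overlapped in MV3, and the level rose in A549 and PANC1 by the test of each line. The contrast was -0.63 ± 0.07 (limma adjusted p = 9.04e-07), and those of RPL18 and RPL35 were -0.62 ± 0.09 and -0.61 ± 0.08. Ribosomal protein genes have many processed pseudogenes, and reads shared with them cannot be assigned with certainty. Of 582 processed pseudogenes compared, 103 had a lower contrast (17.7%, beside 17.8% over all genes) and 12 a higher one (2.06%, beside 16.0%). Their median contrast was -0.16, so they leaned the same way as the ribosomal protein genes. The result moved with scale and gene length. With equal FPKM sums the list's median contrast was 0.01 beside a median of all genes of 0.38, so the distance to all genes kept its size. Less the median of protein-coding genes of like length it was -0.27.

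**Figure D3:**
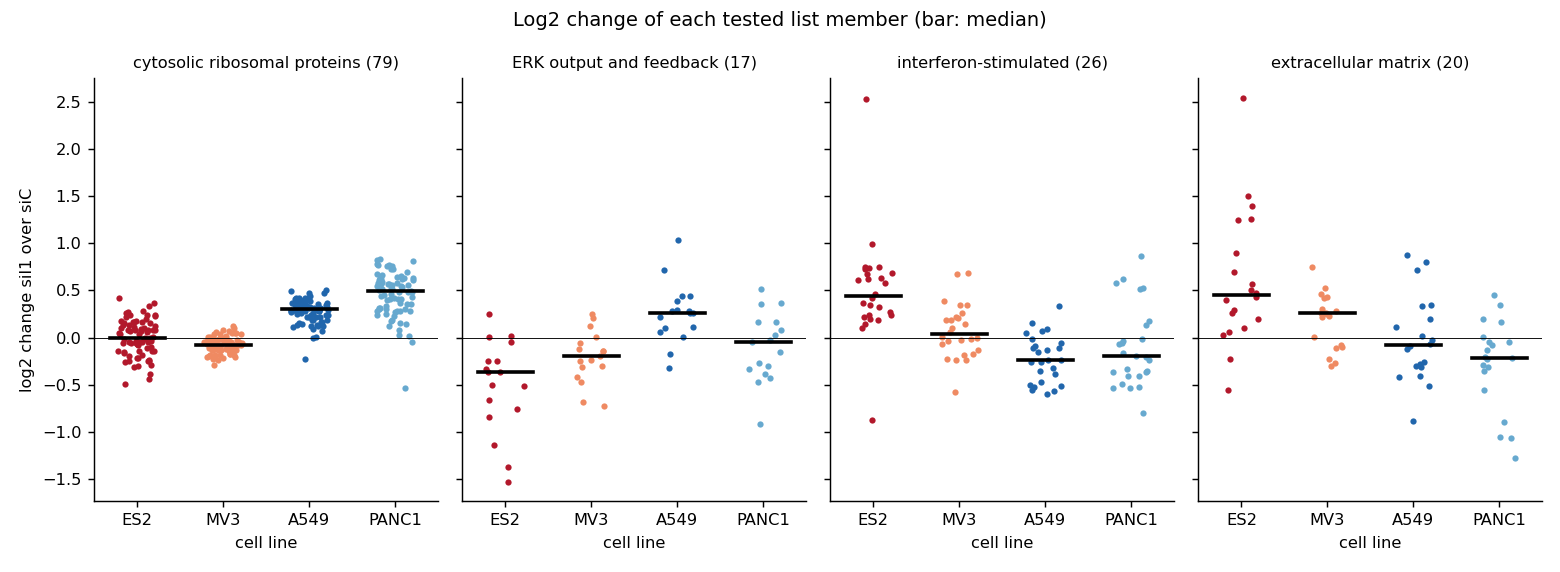
Log2 change (siI1 over siC, vertical axis) of every tested gene of 4 lists in each line (horizontal axis), 1 point a gene and a bar at the median. Ribosomal protein genes centre near 0 in ES2 and MV3 and above 0 in A549 and PANC1, ERK output genes lie lowest in ES2 and highest in A549, and interferon-stimulated and extracellular matrix genes lie highest in ES2.

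Mitochondrial and energy genes had lower contrasts as well. Of 76 mitochondrial ribosomal protein genes 44 had a lower contrast (57.9%, beside 17.8% over all genes) and 2 a higher one (2.63%, beside 16.0%), with a median of -0.27. Consistent were 10 (13.2%, beside 4.09%), all of the large subunit, led by MRPL52 (-0.58 ± 0.07), MRPL57 (-0.52 ± 0.10) and MRPL32 (-0.48 ± 0.08). By line 36 fell in ES2 and 38 in MV3, against 3 in A549 and 8 in PANC1. Of 73 nuclear genes of oxidative phosphorylation 32 were lower (43.8%, beside 17.8%) and 0 higher (median -0.21). Consistent among them were 8, including ATP5G1 of the ATP synthase (-0.58 ± 0.10) and SDHB of complex II (-0.49 ± 0.09), and complex III had 8 of its 9 genes lower. The line medians of the oxidative phosphorylation list were -0.07 in ES2, -0.01 in MV3, 0.07 in A549 and 0.31 in PANC1. Less the median for gene length, the list medians were -0.11 and -0.13, both nearer to 0.

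Glycolytic enzymes rose in A549, and the contrast of the list was lower. Of 20 tested genes 15 had a lower contrast (75.0%, beside 17.8% over all genes) and 1 a higher one. Of them 7 were consistent (35.0%, beside 4.09%), and the list median was -0.36, or -0.38 less the median for gene length. ALDOA (chr16:30064164-30070457, + strand), aldolase A, had the lowest consistent contrast. ALDOA was at 139, 133 and 119.7 FPKM (siC) and 121, 98.4 and 113 FPKM (siI1) in ES2, and at 173, 168 and 154 (siC) and 144, 156 and 147 (siI1) in MV3. ALDOA in A549 was at 124, 112 and 127 FPKM (siC) and 171, 177 and 174 FPKM (siI1), and at 161, 163 and 138 (siC) and 279, 261 and 263 (siI1) in PANC1. The groups overlapped in ES2 and MV3 and were apart in A549 and PANC1, where the level rose, and the contrast was -0.85 ± 0.08 (limma adjusted p = 1.79e-07). PGK1 (-0.66 ± 0.05) and TPI1 (-0.59 ± 0.07), of the same pathway, were consistent, and ENO1, GAPDH, PKM and PGAM1 made up the 7. In 13 of 17 enzyme genes the level rose in A549 and in 4 in PANC1. The hypoxia list, many of whose genes the factor HIF1A induces, had a median contrast of 0.01 with line medians of 0.24 in ES2, 0.19 in MV3, 0.57 in A549 and 0.00 in PANC1, highest in A549 and lowest in PANC1. HILPDA (-0.98 ± 0.09) and FAM162A (-0.67 ± 0.15) were the 2 consistent members of 24.

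Smaller shifts in the same direction were seen in the lists of protein making and breakdown and in some others. Over all genes 17.8% were lower. The lower share was 63.6% of aminoacyl-tRNA synthetases, 54.8% of proteasome genes, 38.6% of translation factors and 54.55% of snoRNA hosts. It was 63.6% of the BCL2 family and 50.0% of the NRF2 list. Aminoacyl-tRNA synthetases had 14 of 22 genes lower and 0 consistent (median -0.22). Of 31 proteasome genes 17 were lower and 1 higher with 6 consistent (median -0.19), among them PSMB5 (-0.47 ± 0.08), PSMD8 (-0.42 ± 0.06) and PSMD7 (-0.40 ± 0.06, same-sum contrast 0.02). Translation factors had 17 of 44 lower and 3 higher (median -0.12), led by the eIF4E inhibitor gene EIF4EBP1 (-0.90 ± 0.12) and the ribosome biogenesis factor gene EIF6 (-0.69 ± 0.07), and EIF4G3 was the 1 consistent higher gene (0.36 ± 0.10). Host genes of small nucleolar RNAs had 12 of 22 lower, with SNHG15 (-0.61 ± 0.11), SNHG5 (-0.60 ± 0.10) and GAS5 (-0.45 ± 0.05) consistent. Reads of the snoRNAs inside these hosts could have been counted to either. MCL1, which keeps cells from apoptosis, was consistent among 11 BCL2 family genes (-0.55 ± 0.06), and 7 of the 11 had a lower contrast. The targets and regulators of NRF2, a factor of the antioxidant response, had 11 of 22 lower and 4 higher (median -0.21). Of these SRXN1 (-0.79 ± 0.18) and TXN (-0.40 ± 0.06) were consistent below and ABCC3 above 0, and 18 of the 22 fell in MV3, against 5 in ES2, 3 in A549 and 4 in PANC1.

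The highest contrast of a consistent protein-coding gene was that of COL5A1 (chr9:134641803-134844843, + strand), a chain of the fibrillar collagen type V. COL5A1 was at 5.73, 6.12 and 5.97 FPKM (siC) and 39.1, 36.4 and 35.7 FPKM (siI1) in ES2, and at 9.69, 9.46 and 9.98 (siC) and 16.7, 16.9 and 16.2 (siI1) in MV3. COL5A1 in A549 was at 54.7, 56.5 and 62.6 FPKM (siC) and 47.6, 47.5 and 47.3 FPKM (siI1), and at 1.82, 1.75 and 2.12 (siC) and 1.61, 1.2 and 1.34 (siI1) in PANC1. No line's groups overlapped: the level rose in ES2 and MV3 and was lower in A549 and PANC1, where the fall passed the threshold in A549 only. Its log2 changes were 2.54 in ES2, 0.75 in MV3, -0.28 in A549 and -0.35 in PANC1, and the contrast was 1.96 ± 0.07 (limma adjusted p = 6.58e-13). COL5A2, which encodes another chain of the same collagen, had one of 1.26 ± 0.08 with log2 changes of 0.90 in ES2, 0.22 in MV3, -0.12 in A549 and -1.28 in PANC1.

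The extracellular matrix list showed this beyond collagen V. Of 60 genes 20 were expressed above the limit in every line. Of these 14 had a higher and 3 a lower contrast (70.0% and 15.0%, beside 16.0% and 17.8% over all genes). Of the 20, 7 were consistent (35.0%, beside 2.98%), and the median was 0.56. By role, 3 of 5 collagens and 7 of 8 laminins and glycoproteins were higher, and the integrins were divided, 4 higher and 3 lower of 7. Among the consistent genes were COL5A1, COL5A2, COL18A1 (0.56 ± 0.06), HSPG2, which encodes the basement membrane proteoglycan perlecan (0.92 ± 0.08), and the laminin genes LAMB1 (0.46 ± 0.07) and LAMB2 (0.78 ± 0.08). The list's median log2 changes were 0.45 in ES2, 0.25 in MV3, -0.08 in A549 and -0.21 in PANC1, and its mean level overlapped between the siC and siI1 libraries of A549 and was apart in the other lines. These are long genes (median 7744 bases in the files, beside 4398 over all genes), and less the median for gene length the list stood at 0.46.

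TGF-beta signalling genes, whose products often drive matrix synthesis, had 15 of 28 higher and 5 lower contrasts (53.6% and 17.9%, beside 16.0% and 17.8% over all genes), with a median of 0.22. Consistent were the receptor genes BMPR2 (0.81 ± 0.06) and TGFBR1 (0.44 ± 0.07), the latent TGF-beta binding protein gene LTBP2 (0.51 ± 0.07), the inhibitory SMAD gene SMAD6 and the target TGFBI (0.93 ± 0.09). SMAD6 had log2 changes of 1.25 in ES2, 0.56 in MV3, -0.42 in A549 and 0.10 in PANC1 and a contrast of 1.06 ± 0.08 (limma adjusted p = 3.67e-08). TGFB1 itself went the other way (-0.55 ± 0.14, adjusted p = 0.00609) without being consistent. Of the YAP and TEAD genes 14 of 31 were higher and 5 lower (45.2% and 16.1%), with a median of 0.20, or 0.08 less the median for gene length. YAP1 fell in all 4 lines (log2 changes -0.58 in ES2, -0.64 in MV3, -1.40 in A549 and -1.20 in PANC1), less in ES2 and MV3, for a contrast of 0.69 ± 0.06. MOB1A (0.72 ± 0.06) and AJUBA (0.88 ± 0.05), which act on the Hippo kinases that restrain YAP, were consistent too.

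Genes of actin and of SRF were divided. Of 33 tested genes 10 had a higher and 8 a lower contrast (30.3% and 24.2%, beside 16.0% and 17.8% over all genes) and the median was 0.03. The 5 consistent genes (15.15%, beside 2.98%) were all higher: TPM1, FHL1, LIMA1, FLNA and TPM4. TPM1, a tropomyosin that lines actin filaments, had log2 changes of 1.27 in ES2, 0.38 in MV3, -0.64 in A549 and 0.25 in PANC1 and a contrast of 1.02 ± 0.04. FHL1 had one of 0.94 ± 0.15 and LIMA1 one of 0.88 ± 0.06. SRF fell in all lines, with a contrast of 0.04 ± 0.09 (limma adjusted p = 0.788).

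S100A4 (chr1:153543613-153550136, - strand), a calcium-binding protein linked to motility, had the second highest contrast of the consistent protein-coding genes. S100A4 was at 0.456, 0.744 and 1.08 FPKM (siC) and 2.31, 1.49 and 1.39 FPKM (siI1) in ES2, and at 51.5, 50.0 and 46.7 (siC) and 65.8, 69 and 68.7 (siI1) in MV3. S100A4 in A549 was at 169, 159 and 189 FPKM (siC) and 103, 107 and 105 FPKM (siI1), and at 171, 215 and 148 (siC) and 96.9, 109.8 and 108 (siI1) in PANC1. The groups were apart in each line, higher after knockdown in ES2 and MV3 and lower in A549 and PANC1, but ES2 rested on as few as 3 reads in a library and did not pass in its own fit (limma adjusted p = 0.0579). The contrast was 1.37 ± 0.16 (limma adjusted p = 3.06e-06). Its neighbour S100A3 had one of 1.25 ± 0.13 on as few as 4 reads. ABCC3, a transporter of conjugated organic anions, had one of 1.32 ± 0.09, with rises in ES2, MV3 and A549 and a fall in PANC1 (1.85 in ES2, 0.65 in MV3, 0.38 in A549 and -0.54 in PANC1). AHNAK2 (1.06 ± 0.05) and the aldehyde dehydrogenase gene ALDH3B1 (1.06 ± 0.09) completed the highest 10 with SMIM14 and PSMB10.

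**Figure D4:**
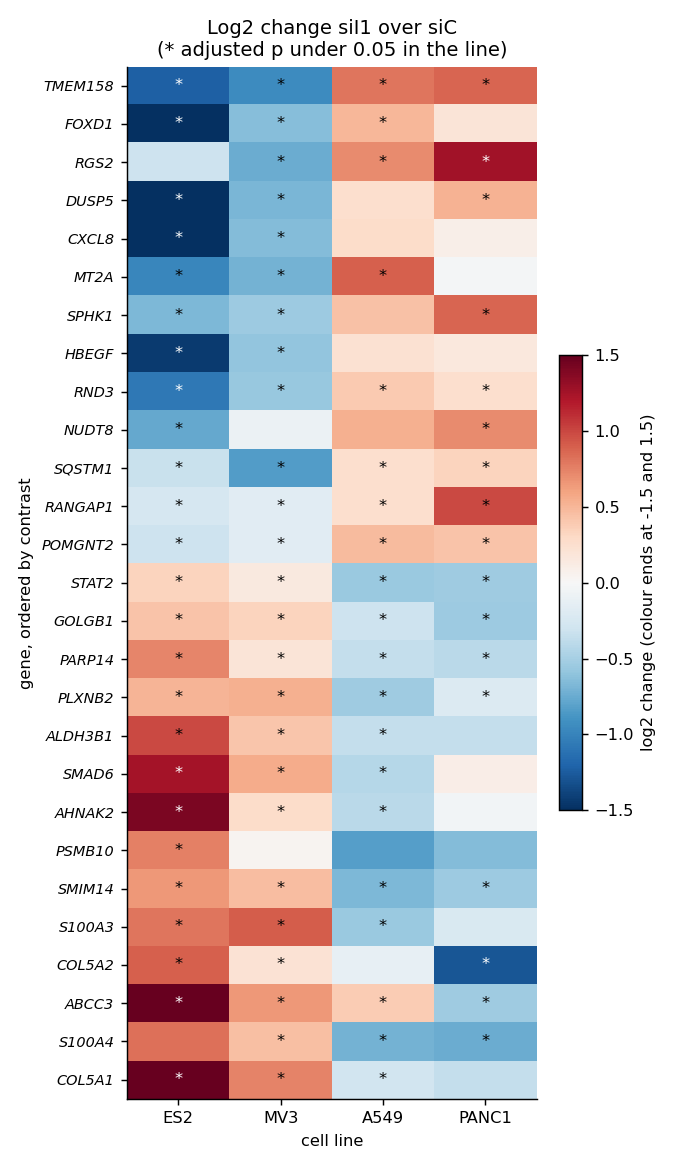
Log2 change (siI1 over siC, colour) in each line (columns) of the 10 lowest and 10 highest consistent protein-coding genes and of genes called in opposite directions in all 4 lines (rows, ordered by contrast); an asterisk marks a limma adjusted p under 0.05 in that line. The rows from TMEM158 to POMGNT2 are blue in ES2 and red or pale in A549, and those from STAT2 to COL5A1 are red in ES2.

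Interferon-stimulated genes responded differently in the pairs. These genes are switched on by a factor complex that holds STAT2 and IRF9, and encode sensors of foreign RNA and proteins that block viruses. Of 50 listed genes 26 were expressed above the limit in every line. Of these 18 had a higher and 0 a lower contrast (69.2%, beside 16.0% over all genes), 4 were consistent (15.4%, beside 2.98%), and the median contrast was 0.46. The median log2 changes were 0.44 in ES2, 0.03 in MV3, -0.24 in A549 and -0.20 in PANC1. In ES2 17 of the 26 rose and 1 fell, in MV3 10 rose and 5 fell, in A549 0 rose and 5 fell, and in PANC1 4 rose and 7 fell, all by limma. In A549 the groups overlapped in the mean log2 level of the list, taken relative to the mean of that line's siC libraries: it was -0.141, -0.0818 and 0.223 (siC) and -0.449, -0.123 and -0.092 (siI1), so that 1 siC library stood above and 1 siI1 library below the rest. In the other lines the groups were apart. The rise was thus mostly that of ES2, and without ES2 the list's median contrast was 0.25. With the minimum at 5 FPKM it was 0.20.

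STAT2 (chr12:56341597-56360203, - strand), a subunit of that complex and consistent, was called in all 4 lines. STAT2 was at 7.11, 7.78 and 7.69 FPKM (siC) and 9.67, 9.22 and 10.1 FPKM (siI1) in ES2, and at 6.79, 7.03 and 6.61 (siC) and 7.81, 7.42 and 7.55 (siI1) in MV3. STAT2 in A549 was at 10.9, 9.63 and 11.4 FPKM (siC) and 7.53, 6.3 and 7.3 FPKM (siI1), and at 4.64, 4.5 and 5.26 (siC) and 3.02, 3.59 and 2.86 (siI1) in PANC1. The groups did not overlap in any line: STAT2 rose in ES2 and slightly in MV3, and fell in A549 and PANC1. The contrast was 0.79 ± 0.08 (limma adjusted p = 7.48e-07). PARP14 (chr3:122680839-122730840, + strand), a mono-ADP-ribosyltransferase, had the same pattern. PARP14 was at 12.2, 12.1 and 10.8 FPKM (siC) and 18.9, 21 and 19.2 FPKM (siI1) in ES2, and at 13.8, 14.6 and 14.1 (siC) and 16.8, 15.6 and 16.3 (siI1) in MV3. PARP14 in A549 was at 45.3, 40.9 and 37.7 FPKM (siC) and 33.4, 29.2 and 33.9 FPKM (siI1), and at 10.7, 9.49 and 12.4 (siC) and 8.81, 8.33 and 7.01 (siI1) in PANC1. Its groups were apart in every line too, and the contrast was 0.84 ± 0.09 (limma adjusted p = 2.17e-06). EIF2AK2, which encodes the double-stranded RNA sensor PKR, had a contrast of 0.54 ± 0.11 with log2 changes of 0.19 in ES2, 0.01 in MV3, -0.48 in A549 and -0.41 in PANC1, and LGALS3BP one of 0.61 ± 0.11.

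Promoter windows of the list are shown for the consistent genes with a match and, chosen after its value was seen, for IFITM1, whose contrast of 1.60 ± 0.32 was the highest of the list but was not consistent (log2 changes 2.53 in ES2, 0.68 in MV3, -0.52 in A549 and 0.53 in PANC1). IFITM1 shares sequence with IFITM3, and reads could have been divided between them. Capitals mark the letters GAAANNGAA of the interferon-stimulated response element, which the complex of STAT2 and IRF9 binds, and coordinates are GRCh38.p14 (RefSeq):
PARP14 chr3:122680800-122680829 plus strand: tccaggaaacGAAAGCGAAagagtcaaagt
EIF2AK2 chr2:37156967-37156996 minus strand: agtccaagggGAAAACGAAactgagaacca
LGALS3BP chr17:78979962-78979991 minus strand: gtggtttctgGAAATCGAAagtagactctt
IFITM1 chr11:313990-314019 plus strand: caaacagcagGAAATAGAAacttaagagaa
IFITM1 chr11:314024-314053 plus strand: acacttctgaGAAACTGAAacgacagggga
On either strand these letters were in 16 of the 22 list genes with a window (72.7%), in 8.29% of all 27305 promoters and in 6.13% of the 7149 promoters of the genes compared. The match lies 25 bases before the start of PARP14 and 2 bases before that of EIF2AK2, counted from the middle of the letters. The window of STAT2 held no match, which says only that these letters are not in it.

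Genes of class I antigen presentation were near the interferon list. Of 10 tested genes 4 had a higher and 0 a lower contrast, with a median of 0.32, and 3 were consistent. PSMB10, a subunit of the immunoproteasome, had a contrast of 1.14 ± 0.19 (limma adjusted p = 0.000158) on as few as 8 reads in a library. Its log2 changes were 0.76 in ES2, 0.04 in MV3, -0.83 in A549 and -0.65 in PANC1. Only that in ES2 passed in the fit of its line. TAPBP, which encodes tapasin and loads peptides, had one of 1.01 ± 0.14, from falls in A549 (-1.24) and PANC1 (-0.77) with overlapping groups in ES2 and MV3. ERAP2, a peptide-trimming enzyme, had one of 0.97 ± 0.17, with log2 changes of 0.42 in ES2, 0.12 in MV3, -0.52 in A549 and -0.86 in PANC1. Only that in PANC1 passed in the fit of its line, from 1.77 FPKM in siC to 0.76 in siI1. B2M, the light chain of class I molecules, did not pass (0.22 ± 0.09, limma adjusted p = 0.0595).

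Besides TMEM158, STAT2 and PARP14, the genes called in all 4 lines with opposite directions included SMIM14, PLXNB2 and GOLGB1, up in ES2 and MV3, and RND3, SQSTM1, RANGAP1 and POMGNT2, down in ES2 and MV3. RND3 (chr2:150468195-150539011, - strand) encodes a RhoA antagonist that loosens actin stress fibres. RND3 was at 37.6, 37.7 and 40.3 FPKM (siC) and 17.3, 19.1 and 17.9 FPKM (siI1) in ES2, and at 51.8, 51.4 and 50.0 (siC) and 33.2, 34.3 and 35 (siI1) in MV3. RND3 in A549 was at 25, 30.6 and 28.5 FPKM (siC) and 40.2, 34.9 and 35.6 FPKM (siI1), and at 17.9, 17 and 17.5 (siC) and 19.6, 22.4 and 20.8 (siI1) in PANC1. Its groups were apart in all lines, and the contrast was -1.14 ± 0.07 (limma adjusted p = 7.5e-10). SQSTM1 (chr5:179806398-179838078, + strand), the autophagy receptor p62, was as clear. SQSTM1 was at 42.3, 46.6 and 43.8 FPKM (siC) and 37, 32.2 and 36.2 FPKM (siI1) in ES2, and at 109, 109.8 and 102 (siC) and 56.3, 62.6 and 59.6 (siI1) in MV3. SQSTM1 in A549 was at 99.1, 88.2 and 98.9 FPKM (siC) and 112, 117 and 112 FPKM (siI1), and at 149, 147 and 137 (siC) and 186, 177 and 183 (siI1) in PANC1. It fell in ES2 and more so in MV3, and rose in A549 and PANC1, with a contrast of -0.88 ± 0.06 (limma adjusted p = 5.59e-09). RANGAP1, which activates the GTPase of Ran in nuclear transport, had log2 changes of -0.25 in ES2, -0.17 in MV3, 0.25 in A549 and 0.99 in PANC1.

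SMIM14 (chr4:39546336-39638902, - strand), a small membrane protein gene, had the highest contrast of the genes with opposite directions. SMIM14 was at 2.92, 2.18 and 3.32 FPKM (siC) and 4.91, 4.71 and 4.3 FPKM (siI1) in ES2, and at 2.63, 2.52 and 2.69 (siC) and 4.02, 3.46 and 3.93 (siI1) in MV3. SMIM14 in A549 was at 13.3, 11.6 and 10.9 FPKM (siC) and 6.94, 7.59 and 7.39 FPKM (siI1), and at 11.4, 12.1 and 10.6 (siC) and 8.16, 7.67 and 7.01 (siI1) in PANC1. All groups were apart, and the contrast was 1.17 ± 0.10 (limma adjusted p = 1.4e-07). The semaphorin receptor gene PLXNB2 (0.90 ± 0.06) and the Golgi protein gene GOLGB1 (0.81 ± 0.06) had smaller ones. Opposite directions depend on where 0 lies. With equal FPKM sums 23 genes were up in ES2 and MV3 and down in the others, and 0 the other way round.

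Taken whole, the cell cycle lists had median contrasts near that of all genes. The median contrast was 0.02 over 56 DNA replication genes, 0.09 over 59 mitosis genes and 0.05 over 13 genes of E2F and pocket proteins. Within mitosis, 12 of 29 kinetochore and spindle genes were higher (41.4%, beside 16.0% over all genes) and 1 lower (median 0.15). Of 16 kinase and cyclin genes 0 were higher and 5 lower (31.25%, beside 17.8%, median 0.05). Of 14 exit and chromatin genes 2 were higher and 2 lower. The line medians of the mitosis list, -0.25 in ES2, -0.46 in MV3, -0.25 in A549 and -0.66 in PANC1, put ES2 beside A549 and MV3 nearer to PANC1, a split across the pairs. Consistent were RRM2, the ribonucleotide reductase subunit (-0.73 ± 0.08), and FEN1 (-0.44 ± 0.06), both of which fell in ES2 and MV3, and the kinesin gene KIF4A (0.45 ± 0.09), which fell in all 4 lines. Among the RNAs the study followed, AURKA (0.09 ± 0.06), CDK1 (0.08 ± 0.07), E2F1 (0.00 ± 0.11), MKI67 (0.27 ± 0.18) and SIRT1 (0.23 ± 0.12) did not pass. YWHAZ (0.42 ± 0.09), E2F2 (0.36 ± 0.14), HDLBP (0.18 ± 0.06) and LINC00205, which rose in all 4 lines (0.54 ± 0.13) had higher contrasts and PLK1 a lower one (-0.25 ± 0.08), at limma adjusted p of 0.00148, 0.0451, 0.0185, 0.00395 and 0.0294. The log2 changes of each of these genes had 1 sign in all 4 lines, so that the differences were of degree.

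Replication-dependent histone genes fell in all lines and further in ES2 and MV3. Of 50 tested genes 21 had a lower contrast (42.0%, beside 17.8% over all genes) and 0 a higher one. The median was -0.32, with line medians of -0.95 in ES2, -0.77 in MV3, -0.63 in A549 and -0.50 in PANC1. The 3 consistent genes (6.0%, beside 4.09%) were HIST1H3B (-0.45 ± 0.09), HIST1H4J (-0.36 ± 0.10) and HIST1H4K (-0.35 ± 0.08). Histone genes are short and near-identical, so single genes are uncertain, and less the median for gene length the list stood at -0.14.

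**Figure D5:**
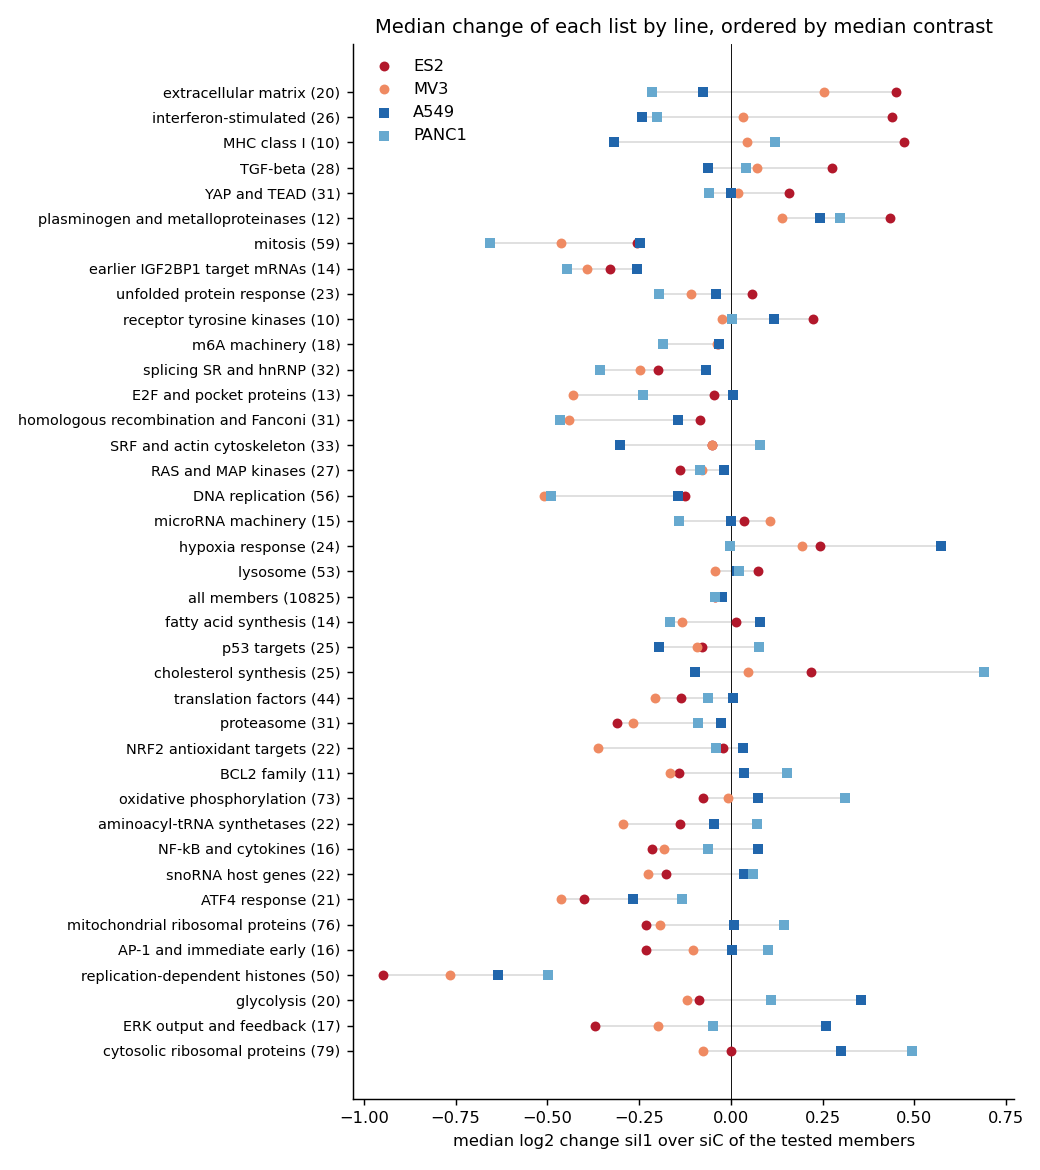
Median log2 change (siI1 over siC, horizontal axis) of the tested genes of each list of at least 10 genes in ES2 and MV3 (circles) and A549 and PANC1 (squares); lists are ordered by median contrast and numbers of genes are in brackets. Both circles lie to the left of both squares for the cytosolic ribosomal proteins and glycolysis, and to the right of them for the interferon-stimulated and extracellular matrix lists.

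Other lists stood near the median of all genes or were divided. The lysosome list had 12 higher and 11 lower of 53 (22.6% and 20.75%, beside 16.0% and 17.8% over all genes), with a median of 0.00. Its 5 consistent genes (9.43%, beside 4.09%) were all lower, among them the protease gene CTSC (-0.88 ± 0.05), the cholesterol exporter gene NPC1 (-0.80 ± 0.07) and ATP6V0B (-0.73 ± 0.07). Cholesterol synthesis had a median contrast of -0.07 with 0 consistent genes. Its rise was largest in PANC1 and was also seen in ES2, 1 line of each pair. The line medians were 0.22 in ES2, 0.05 in MV3, -0.10 in A549 and 0.69 in PANC1. Of 25 genes 19 rose and 1 fell in PANC1, and 14 rose and 2 fell in ES2. In MV3 8 rose and 4 fell, and in A549 2 rose and 4 fell. The unfolded protein response had 6 higher and 3 lower of 23 (26.1% and 13.0%), with a median of 0.06, and was divided by role. Of 18 genes listed as chaperones of the endoplasmic reticulum 6 were higher (33.3%, beside 16.0% over all genes) and 1 lower. Of 5 sensors and factors 0 were higher and 2 lower. SEL1L (0.49 ± 0.08), CALR (0.39 ± 0.05) and CRELD2 (0.34 ± 0.09), of the chaperone role, were consistent, all higher (13.0% of the 23, beside 2.98%). The p53 targets held MDM2 (0.48 ± 0.05) and RRM2B (0.22 ± 0.05) above and AEN (-0.53 ± 0.10) below 0, with a median of -0.01. The m6A demethylase gene ALKBH5 (-0.40 ± 0.06) and the m6A reader gene YTHDF2 (-0.27 ± 0.05) were lower, 2 of 18 in their list, and both were above 0 with equal sums (0.02 and 0.14).

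Earlier known IGF2BP1 target mRNAs had a median contrast of 0.07, and MYC was the only consistent one. Of the 14 tested, 3 were higher and 3 lower (21.4% each way, near the 16.0% and 17.8% over all genes). Among long intergenic RNAs, 173 of which were compared, 2 were consistent higher, AP006621.3 (0.89 ± 0.20) and LINC01963 (0.75 ± 0.11), and 2 consistent lower, AL355338.1 (-0.67 ± 0.17) and SNHG15. LINC01963 fell in A549 and PANC1 (-0.63 and -0.69), and its groups overlapped in ES2 and MV3.

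The contrast moved with gene length and base composition. With the protein-coding genes cut into 5 equal bins by length, from the shortest to the longest, the median contrast was -0.19, -0.06, 0.00, 0.05 and 0.14, and the share of consistent lower genes went from 8.87% to 1.35% while that of consistent higher genes went from 0.505% to 8.59%. The consistent higher protein-coding genes had a median length of 8134 bases and 44.9% G and C, the lower ones 3542 bases and 50.9%, and the others 5117 bases and 47.5%. By line the medians of the shortest and longest bin were 0.12 and -0.17 in PANC1 and 0.03 and -0.06 in A549, against -0.14 and 0.03 in ES2 and -0.08 and 0.00 in MV3. Length thus moved with the response in opposite directions in PANC1 and ES2. Its part in the results was not tested beyond the list medians less the median of the length bin: those of the ERK output (-0.34), ATF4 (-0.24), glycolysis (-0.38), interferon (0.42) and extracellular matrix lists (0.46) stayed near their size, and those of the mitochondrial ribosomal proteins (-0.11), oxidative phosphorylation (-0.13), proteasome (-0.13), BCL2 family (-0.13), histones (-0.14) and YAP and TEAD genes (0.08) came nearer to 0 by more than 1.5 times, while that of class I antigen presentation moved away from it (0.51).

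In the fits of single lines, over the same genes, 1366 rose (12.6%) and 2069 fell (19.1%) in ES2, 1872 rose (17.3%) and 3089 fell (28.5%) in MV3, 1043 rose (9.64%) and 1316 fell (12.2%) in A549, and 1610 rose (14.9%) and 2027 fell (18.7%) in PANC1. These shares differ with depth and spread as well as with the size of the response, so a gene called in 1 line and not in another is not shown to differ by that alone.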

How the data were processed

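RNA-seq of rRNA-depleted total RNA was deposited for 24 libraries, 3 of siC and 3 of siI1 transfected cells in each of ES2, MV3, A549 and PANC1, and samples were grouped by their titles. Per the submitters' processing notes and methods, the authors trimmed reads with cutadapt (1.14), aligned them to hg38 with HISAT2 (2.1.0), counted them per gene of the Ensembl annotation with featureCounts (1.5.3), and normalised with the TMM factors of edgeR (3.30.3). The deposited values are FPKM, one table a line, each scaled by the authors on its own, so that levels are compared across tables only where they differ by far. The strand setting of the counting is not given in the sources used here. The tables also hold the authors' fold changes and p-values of each line, which were not used.

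The FPKM were whole multiples of 1 read (within 0.01 reads for 100% of values), which gave the reads behind each value, and TMM factors lay between 0.905 and 1.10. Replicates differed by more than counting noise in all 24 pairs within groups (chi-square per degree of freedom 1.54 to 15.1). Genes had to reach a table mean of 1 FPKM in all lines, and log2(FPKM + 0.5) was fitted with limma (3.58.1, R 4.3.3) with 1 mean per group, an intensity trend and two-sided tests. Fold changes are on that scale, which understates changes of low genes. P-values were adjusted by Benjamini-Hochberg over the 10825 genes, with a threshold of 0.05. The pooled spread of the 24 libraries is the mean of the spreads of the lines. Line changes were also fitted on the 6 libraries of each line. The study calls the replicates biological.

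Named genes were the IGF2BP family, the 10 highest and 10 lowest consistent protein-coding contrasts, the 5 highest and 5 lowest of those with opposite directions, up to 3 consistent lincRNAs and list members in each direction, and genes the study followed, 119 in all, some of which are not reported here. Other list members are named from their counts, and were chosen after their values were seen. The comparison, the 39 gene lists and the tests were chosen with earlier results of these data known. Lists were described by counts and medians, with no test of a list. The fit was checked on simulated data with known changes. Positions are GENCODE v44 and promoter windows RefSeq. Alternatives were other pseudocounts, limits and scalings, limma voom on the recovered reads, a replicate block, the lines' own spreads, and leaving out each line and each library.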

Additional observations from a re-analysis of the deposited data

Results flagged for a closer look

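The knockdown response differed between these 2 pairs of lines, by the test of the difference itself, in 1732 genes with a higher and 1927 with a lower contrast (limma, 10825 genes), of which 323 and 443 held in all 4 comparisons of a line of one pair with a line of the other. That test measures the spread of libraries within groups and not that between lines. Within the pairs the response differed in 1255 genes (11.6%, MV3 and ES2) and 3284 genes (30.3%, PANC1 and A549).

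In 6 genes all lines were called with ES2 and MV3 up and A549 and PANC1 down, and their contrasts were 1.17 for SMIM14, 0.90 for PLXNB2, 0.84 for PARP14, 0.81 for GOLGB1, 0.79 for STAT2 and 0.60 for PKD2. In another 6 the directions were turned round, with contrasts of -1.92 for TMEM158, -1.14 for RND3, -0.88 for SQSTM1, -0.83 for RANGAP1, -0.69 for POMGNT2 and -0.57 for IRS1. PKD2, which encodes polycystin 2, and IRS1, an adaptor of the insulin receptor, lie outside the rule for named genes and are given because each count is small. With the replicate number as a block 1 gene was left each way. Outlying libraries were not tested for in these groups of 3. Replicates 2 and 3 of the PANC1 siC libraries differed most (chi-square per degree of freedom 15.1, against at most 5.87 in the other 23 pairs).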

How the results depend on the processing

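Pseudocounts of 0.1 and 1, a limit of 0.5 FPKM, centring each line on its median and the lines' own spreads left all 6 counts within 1.5 times the reported ones. With a limit of 5 FPKM 5394 genes were tested. Of these 950 were higher and 1591 lower, and 158 and 370 consistent, with a median contrast of -0.06. With no limit 22244 genes were tested. Of these 2475 were higher and 2013 lower, and 507 and 481 consistent, with a median contrast of 0.03. The balance of directions thus moved with the limit. Of the called genes 37.4% were higher at 5 FPKM and 55.2% with no limit, beside 47.3% as reported. With a contrast of at least 0.5 required, 392 were higher, 460 lower, 167 consistent higher and 197 consistent lower. The scaling mattered most. With equal FPKM sums there were 5955 higher and 112 lower, 640 and 7 consistent, and 23 and 0 of opposite direction (up and down in ES2 and MV3), and with equal protein-coding sums, added after the data were seen, 3186 and 959, 760 and 152, and 11 and 4. Under equal sums the shift of the median contrast by over 0.3 turned 14 named genes: IGF2BP2 (0.37), TXN (0.027), TFDP1 (0.076), HIST1H4J (0.067), HIST1H4K (0.070), EEF1D (0.054), PSMD7 (0.022), PTBP1 (0.10), HNRNPH2 (0.11), HNRNPAB (0.19), PHLDA1 (0.022), ALKBH5 (0.019), YTHDF2 (0.14) and PLK1 (0.16), and under equal protein-coding sums IGF2BP2 (0.11). Which scaling is right was not tested. With voom on the recovered reads 13 and 20 genes had opposite directions.

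Without A549 there were 1485 and 1709 consistent genes (higher and lower) and 51 and 82 of opposite direction, without ES2 955 higher and 1238 lower, 567 and 754 consistent and 19 and 26 opposite, without MV3 916 and 889 consistent and 20 and 19 opposite, and without PANC1 967 and 1197 and 34 and 39. Consistent and opposite counts rise there because fewer lines have to pass. Contrasts that were not called turned sign: E2F1 (-0.15 without A549, -0.26 without ES2, -0.0080 at a pseudocount of 1), SRF (-0.38 without A549, -0.13 without MV3), IGF2BP3 (-0.15 without ES2), and without PANC1 IGF2BP1 (-0.21), IGF2BP2 (0.021), IGF2BP3 (-0.075), AURKA (-0.11) and CDK1 (-0.025). Leaving out 1 library at a time gave 1554 to 1810 higher, 1694 to 2076 lower, 283 to 337 and 363 to 483 consistent, and 3 to 7 and 1 to 8 genes of opposite direction, and turned E2F1 (-0.083 to 0.047) and SRF (-0.012 to 0.080) only.

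Replicate numbers did not pair the libraries: the correlations of same-numbered siC and siI1 libraries ran from -0.09 to 0.04. With the replicate number as a block 1532 contrasts were higher and 1723 lower, 297 and 397 consistent, and 1 and 1 of opposite direction. Depth limits A549 most, with the fewest reads and the largest spread.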

Other observations

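Outside the protein-coding genes, the highest contrast of a consistent gene was 2.77 for RN7SKP70, a copy of the 7SK small nuclear RNA, and low contrasts were found for the small RNAs SNORA59A (-1.84) and RNU4ATAC (-1.70). Reads of such short or repeated genes may come from their relatives, and the genes were chosen after their values were seen. Of 128 small nucleolar RNAs 21 had a lower (16.4%, beside 17.8% over all genes) and 4 a higher contrast (3.1%, beside 16.0%), with a median of -0.15. Of 173 lincRNAs 21 had a higher (12.1%, beside 16.0% over all genes) and 10 a lower one (5.78%, beside 17.8%).

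Splicing factors of the SR and hnRNP families had 8 higher and 4 lower of 32 (25.0% and 12.5%, beside 16.0% and 17.8% over all genes), with PTBP1 (-0.32), HNRNPH2 (-0.31) and HNRNPAB (-0.23) consistent. In the microRNA machinery TNRC6B (0.36), a partner of Argonaute, and TARBP2 (-0.43), a partner of Dicer, went opposite ways. FADS2, a fatty acid desaturase, was the only consistent gene of 14 in fatty acid synthesis (0.60). Recombination and Fanconi genes had 3 higher (9.68%, beside 16.0% over all genes) and 0 lower of 31 by limma, and 0 consistent.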
